A study of Mus musculus with 516 samples.

Results

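The activin and TGF-beta signalling genes described here are Inhba, Inhbb, Fstl1, Acvr1, Bmpr1a, Smad3 and Pmepa1, 7 of the 11251 genes measured in individual mouse cells from dorsal root ganglia, which hold the cell bodies of sensory neurons. They were taken by name, as secreted ligands, a secreted binder, receptors, a transcription factor and a target of the pathway, and all 7 were present in the count table. Reads were followed per cell and summed over neuron-like and other cells of 4 groups of cells. The 516 cells came from mice of the strains C57BL/6 (243 cells) and CAST/Ei (273 cells); 306 were naive and 210 cultured, with 99 of the cultured cells from CAST/Ei. Naive cells were captured right after dissociation. Cultured cells had undergone in vitro axotomy, in which dissociation cuts the axons: they were plated for 48 h, with the mitotic inhibitor ara-C added at 24 h, and lifted with trypsin. All cells passed a mesh and a Percoll density step before capture on a microfluidic chip, so the captured cells are a selection from the ganglia. The labels give no age and no animal, culture or capture run, so each group was 1 sample, no difference below has a replicate check, and no test was made.

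The table held 13932 to 2978345 reads per cell. Clusters found without the pathway genes were classed from marker lists, and the neuron-like cells numbered 241 naive ones, 85 of them C57BL/6 and the rest CAST/Ei, and 98 cultured ones, 33 C57BL/6 and 65 CAST/Ei, with medians of 532824 to 969315 reads. Cultured neuron-like cells had lower neuron markers than naive ones (13840 against 26207 CPM, a gene's reads scaled by the total of the cell or sum, summed over the 19 listed genes in C57BL/6, and 13747 against 24043 CPM in CAST/Ei) and held markers of other cells. All 13 measured of the 15 listed glial genes were above 1 CPM in them, and the summed glial list stood at 2713 CPM in C57BL/6 and 2890 CPM in CAST/Ei, against 1750 and 2326 CPM in naive cells. Sox10, a transcription factor of glia, had 52.4 and 125.7 CPM against 3.12 and 1.94 CPM. The 8 measured of 11 fibroblast genes summed to 791 and 1749 CPM against 422 and 466 CPM, and the 10 genes of dividing cells to 1318 and 1257 CPM against 9.69 and 15.3 CPM. None of these glial, fibroblast or dividing genes was at 0 in any of these sums. The part of these other-cell transcripts in the results below was examined only by leaving out cells, as given beside them. Naive and cultured cells were different cells, so a change within neurons and a change in which neurons were captured cannot be told apart. A further 31 naive C57BL/6 cells (cluster 9) had a high neuron list mean (8.69) and the low-threshold C fibre gene Th at 2499 CPM. Their leading genes were Tmem132c and then Rgs5, listed as a marker of mural cells of vessels (3442 CPM, while the mural gene Acta2 had 0.26 CPM). Because of Rgs5 they stayed unnamed, though cluster 13, named as neurons, also had Rgs5 at 1625 CPM. The naive neuron-like sums therefore lack these C57BL/6 cells but include cluster 10 of CAST/Ei, with Th at 2665 CPM. Calls that change when the cluster 9 cells are counted as neuron-like are given both ways.

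Activins are dimers of the inhibin beta subunits that Inhba and Inhbb encode. They bind a type II receptor, which activates a type I receptor, and the activated receptor phosphorylates Smad2 and Smad3, which enter the nucleus with Smad4. Bone morphogenetic proteins (BMPs) use type I receptors such as Acvr1 and Bmpr1a and act through Smad1, Smad5 and Smad9. In sensory ganglia, activin is known to promote the neuropeptide CGRP, and Smad1 is known for its part in axon growth after peripheral nerve injury.

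The upstream sequences of both activin subunit genes are shown because these subunits had the largest ratios between cultured and naive cells. They run for 250 bases up to the start that the RefSeq promoter table (GRCm38.p6) uses for each gene, 5′ to 3′ on the gene's strand, and lie at chr13:16011601-16011850 (plus strand) for Inhba and at chr1:119422249-119422498 (minus strand) for Inhbb. The Inhba window lies within the annotated gene span (16004256 to 16031609), upstream of an internal start and not of the first base of the gene, while the Inhbb window ends where the gene begins. Capitals mark TATAAA, the core of a TATA box, in Inhba and the GC box CCGCCC, which is GGGCGG on the other strand, in Inhbb.
Inhba: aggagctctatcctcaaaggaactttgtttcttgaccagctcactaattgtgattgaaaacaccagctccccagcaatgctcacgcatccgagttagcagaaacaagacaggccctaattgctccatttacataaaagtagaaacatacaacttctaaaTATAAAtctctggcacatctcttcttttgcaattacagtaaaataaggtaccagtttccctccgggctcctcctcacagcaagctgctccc
Inhbb: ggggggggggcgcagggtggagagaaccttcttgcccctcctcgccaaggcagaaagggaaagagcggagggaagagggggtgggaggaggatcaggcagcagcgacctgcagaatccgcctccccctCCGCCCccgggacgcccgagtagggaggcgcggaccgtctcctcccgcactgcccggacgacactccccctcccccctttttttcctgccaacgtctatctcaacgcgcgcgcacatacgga
The TATAAA of Inhba lies 91 bases before the start. With 50 bases after the start included, TATAAA occurred in 13.6% and GGGCGG in 35.7% of the 32851 promoter windows of the table, on either strand. Inhba had no GGGCGG and a GC content of 47.7%, against 64.3% in Inhbb. Acvr1 held 6 GGGCGG matches, Bmpr1a 4, Fstl1 2 and Smad3 2, while 5.49% of all windows held 4 or more. The SMAD-binding letters CAGAC (in 49.6% of windows) and the AP-1 site TGANTCA (7.81%) were not found in the windows of these 6 genes on either strand. Pmepa1 was not matched in the table. The Acvr1 matches at 57 and 52 bases before the start overlap by 1 base, and TATAAA and GGGCGG were chosen after the sequences were seen.

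Cultured neuron-like cells of both strains were higher in both activin subunits and in Pmepa1, and lower in Fstl1, than naive neuron-like cells. A gene was called where its summed CPM + 1 was at least 2-fold apart, over genes with at least 1 CPM in either sum. In C57BL/6, 5 of the 7 genes were called higher (Inhba, Inhbb, Acvr1, Smad3 and Pmepa1) and Fstl1 lower, while 20.9% of all genes were called higher and 23.7% lower. In CAST/Ei, the 5 called higher were Inhba, Inhbb, Acvr1, Bmpr1a and Pmepa1, and Fstl1 was again called lower, against 23.1% and 22.4% of all genes. The median log2 ratio of the 7 genes was 2.55 in C57BL/6 and 2.53 in CAST/Ei, against -0.15 and 0.03 over all genes. Groups within a strain share no cells with the other strain, but the genes were chosen with these results known, so the counts describe them and do not test them.

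**Figure D1:**
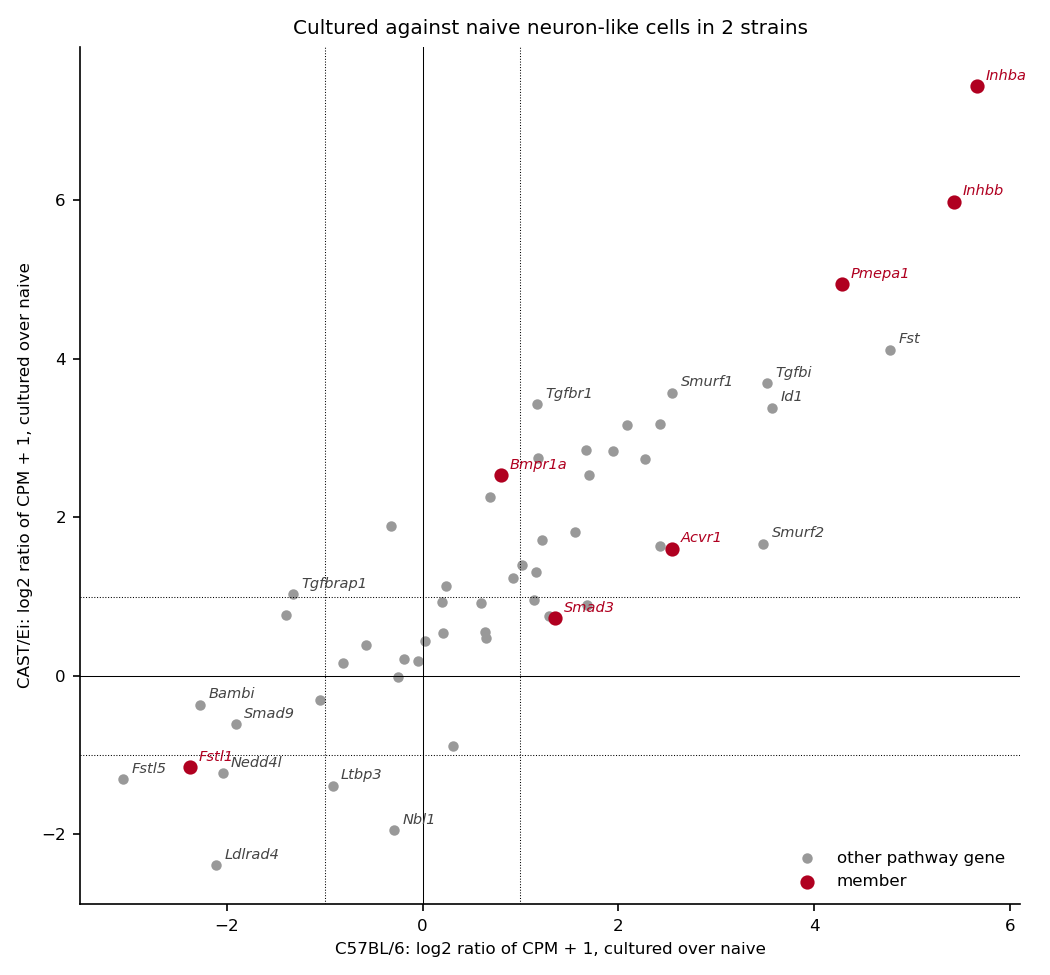
Log2 ratio of summed CPM + 1 in cultured over naive neuron-like cells, C57BL/6 on the x axis and CAST/Ei on the y axis, for the 7 genes (red) and the other pathway genes but 1 (grey), with dotted lines at 2-fold. Inhba, Inhbb and Pmepa1 lie above 4 on both axes and Fstl1 lies below -1 on both.

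Inhba, the activin A subunit (chromosome 13, 16004256 to 16031609), was near absent from naive neuron-like cells. Among the 85 naive C57BL/6 cells the lowest and the median level were 0 CPM and the highest 17.5 CPM. The 33 cultured C57BL/6 cells ranged from 0 to 814 CPM with a median of 3.25 CPM. In CAST/Ei, the naive cells had a median of 0 and a highest value of 8.87 CPM, while the 65 cultured cells ranged from 0 to 3435 CPM with a median of 63.4 CPM. Most cultured CAST/Ei cells, 52 of 65, lay above every naive CAST/Ei cell, but only 13 of 33 did so in C57BL/6, so the groups overlapped in both strains. Summed reads gave 70.1 CPM (95% Poisson interval 66.2 to 74.2, counting error only, as for all intervals here) against 0.401 CPM (0.264 to 0.583) in C57BL/6, a log2 ratio of 5.67. CAST/Ei gave 193 CPM (189.8 to 196) against 0.119 CPM (0.0719 to 0.186), a log2 ratio of 7.44, which ranked 4 of 11244 genes.

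Shares of cells with Inhba followed the same order. At 200000 reads per cell, no naive cell had at least 5 Inhba reads. A count of 0 allows a share of up to 3.80% among the 79 naive C57BL/6 cells of that depth and of up to 2.03% in CAST/Ei. Among cultured cells it was 34.6% in C57BL/6 (9 of 26 cells, 95% Clopper-Pearson interval 17.2 to 55.7) and 70.7% in CAST/Ei (41 of 58, 57.3 to 81.9). The other cells of the same cultures had 23.9% (17 of 71) and 65.6% (21 of 32), within the counting error of the neuron-like shares. Without thinning, the neuron-like shares were 42.4% and 84.6% and those of other cells 34.6% and 85.3%, at median depths of 532824 and 858919 reads in neuron-like cells and 864746 and 1503440 in others. Inhba was therefore not restricted to neuron-like cells after culture.

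Inhbb, the activin B subunit (chromosome 1, 119415463 to 119422248), had a median of 0 CPM in naive cells of both strains. The highest naive cell had 94.96 CPM in C57BL/6 and 31.1 CPM in CAST/Ei. In cultured cells the range was 0 to 1926 CPM with a median of 6.74 CPM in C57BL/6, and 0 to 739 CPM with a median of 20.8 CPM in CAST/Ei. The groups overlapped: 4 of 33 cultured C57BL/6 cells and 29 of 65 cultured CAST/Ei cells exceeded every naive cell of their strain. The sums were 131.7 CPM (126.2 to 137.2) against 2.08 CPM (1.75 to 2.45) in C57BL/6, a log2 ratio of 5.43, and 80.4 CPM (78.3 to 82.5) against 0.289 CPM (0.212 to 0.386) in CAST/Ei, a log2 ratio of 5.98. Most naive Inhbb reads of C57BL/6 neuron-like cells came from cluster 15, 10 cells led by Clec2l. Nefh, a neurofilament gene of myelinated neurons, was further down among the 10 leading genes of that cluster. Inhbb stood there at 19.6 CPM (16.4 to 23.3), and 4 of 8 cells were called with the gene.

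**Figure D2:**
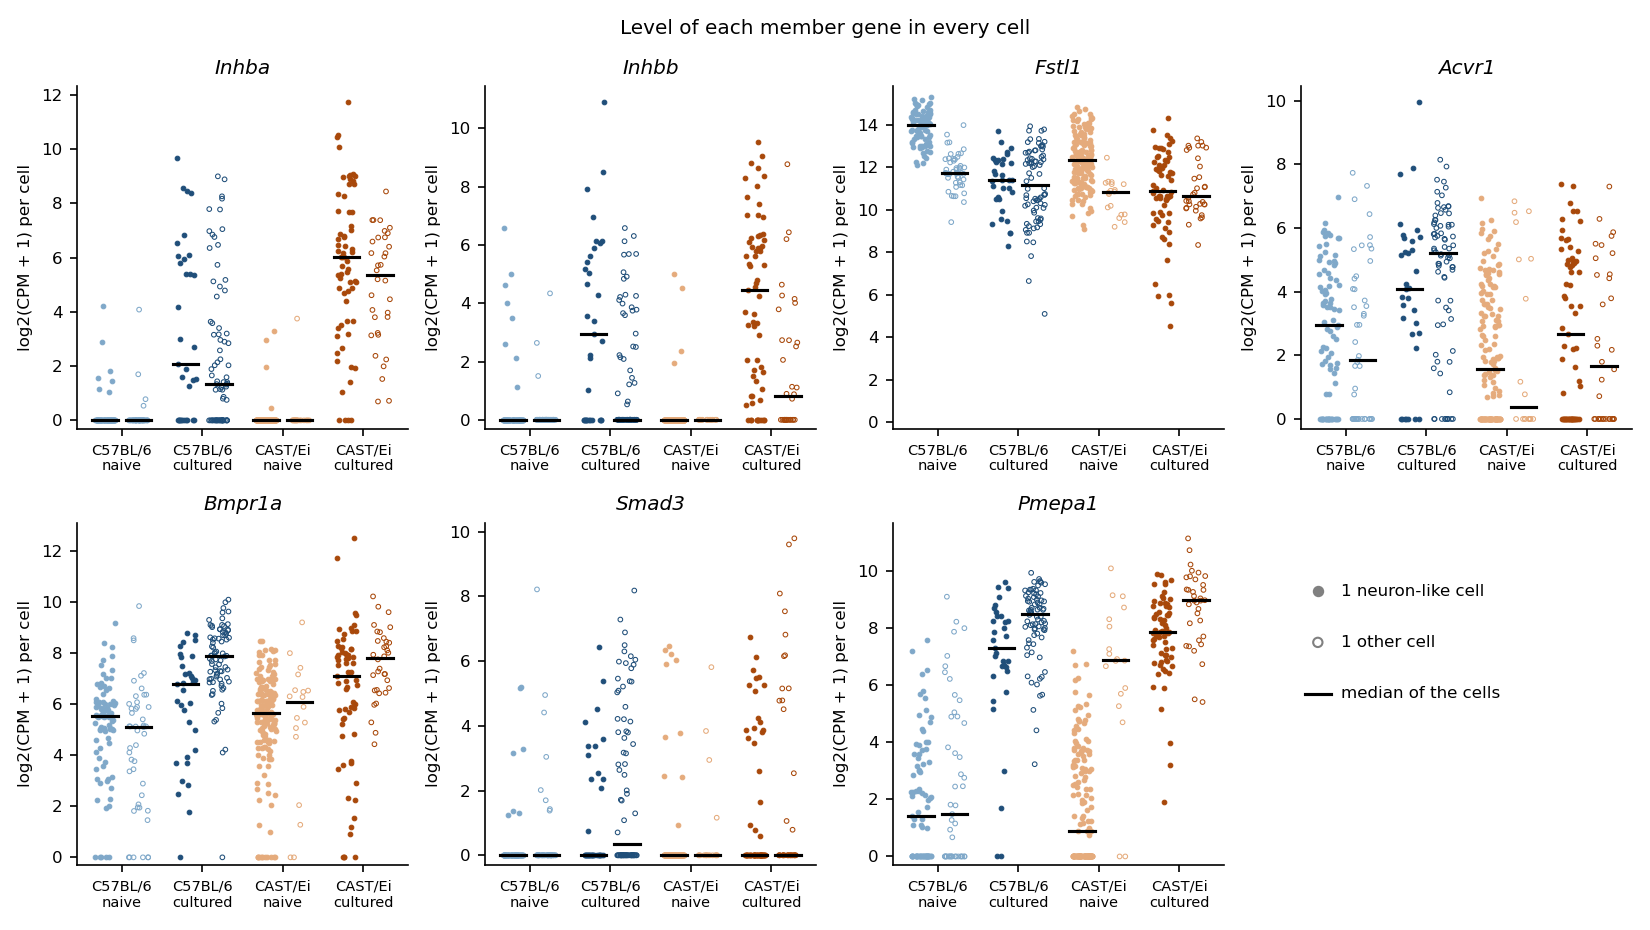
Level per cell, as log2(CPM + 1) on the y axis, for each of the 7 genes in the 4 groups. Filled points are neuron-like cells, open points other cells and lines medians; most naive cells sit at 0 for Inhba and Inhbb, while cultured neuron-like cells reach 3435 and 1926 CPM.

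A few cells held much of the sums in cultured C57BL/6. A cell of cluster 5 gave 51.1% of the Inhba reads (814 CPM), and another gave 76.1% of the Inhbb reads (1926 CPM). Without the cell that held most reads in each group, Inhba still stood at 35.9 against 0.18 CPM and Inhbb at 33.3 against 0.95 CPM, log2 ratios of 4.97 and 4.14. In cultured CAST/Ei the cell with most reads held 24.8% of Inhba and 26.1% of Inhbb, and without it the log2 ratios were 7.14 and 5.88. Leaving out the cells with the highest glial list left 12 cultured C57BL/6 and 29 cultured CAST/Ei cells. Inhba was then 101.9 and 273 CPM and Inhbb 249 and 108.98 CPM, so both subunits were higher without those cells. The mean of the glial list was 5.41 in C57BL/6 and 5.535 in CAST/Ei cells of cluster 1, against 3.10 and 3.41 in cluster 5. Leaving out those cells therefore also changes the mix of the 2 clusters, and it cannot separate other-cell transcripts from that mix. The C57BL/6 Inhbb value was not taken again without the cell at 1926 CPM.

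The cultured neuron-like cells fell mainly into 2 clusters, which differed in their activin subunits. Cluster 1 (22 C57BL/6 and 32 CAST/Ei cells) led with Sprr1a, a protein of regrowing axons, and cluster 5 (10 and 31 cells) led with Speg and included Npy, a neuropeptide. Neither had a listed neuron marker among its 10 leading genes, though all 19 were detected. Inhba stood at 22.7 CPM in C57BL/6 and 101.2 CPM in CAST/Ei in cluster 1, and at 141.1 and 259 CPM in cluster 5. Inhbb stood at 20.8 and 38.6 CPM in cluster 1 and at 296 and 110.8 CPM in cluster 5. Both genes were thus higher in cluster 5 in each strain, but in the 10 C57BL/6 cells of cluster 5 a cell each held 62.7% of the Inhba and 83.6% of the Inhbb reads. Without the cell with most reads of the gene in each cluster, Inhba was at 59.1 CPM in cluster 5 against 13.9 CPM in cluster 1 in C57BL/6, and at 189.95 against 77.8 CPM in CAST/Ei. Inhbb was then at 55.8 against 17.4 CPM and at 79.5 against 29.4 CPM, so the order was kept. Cluster 5 cells had fewer genes with a read, with medians of 4750.5 and 4649 per cell against 8941 and 9034 in cluster 1, and whether this bears on the levels was not tested.

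Outside the neuron-like class, cluster 3 (led by Spp1, with the highest fibroblast list) had Inhba at 89.7 CPM in C57BL/6 and 81.4 CPM in CAST/Ei. The glia-like clusters differed: cluster 8 (33 C57BL/6 cells, led by Sfrp1) had Inhba at 4.47 CPM, and cluster 11 (24 CAST/Ei cells, led by Gdnf) at 63.5 CPM. Inhbb was at 4.33 and 4.36 CPM in those same clusters. In cluster 3 it was 11.8 CPM in C57BL/6 and 105.7 CPM in CAST/Ei, where 5 of 10 cells held 99.7% of the reads.

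**Figure D3:**
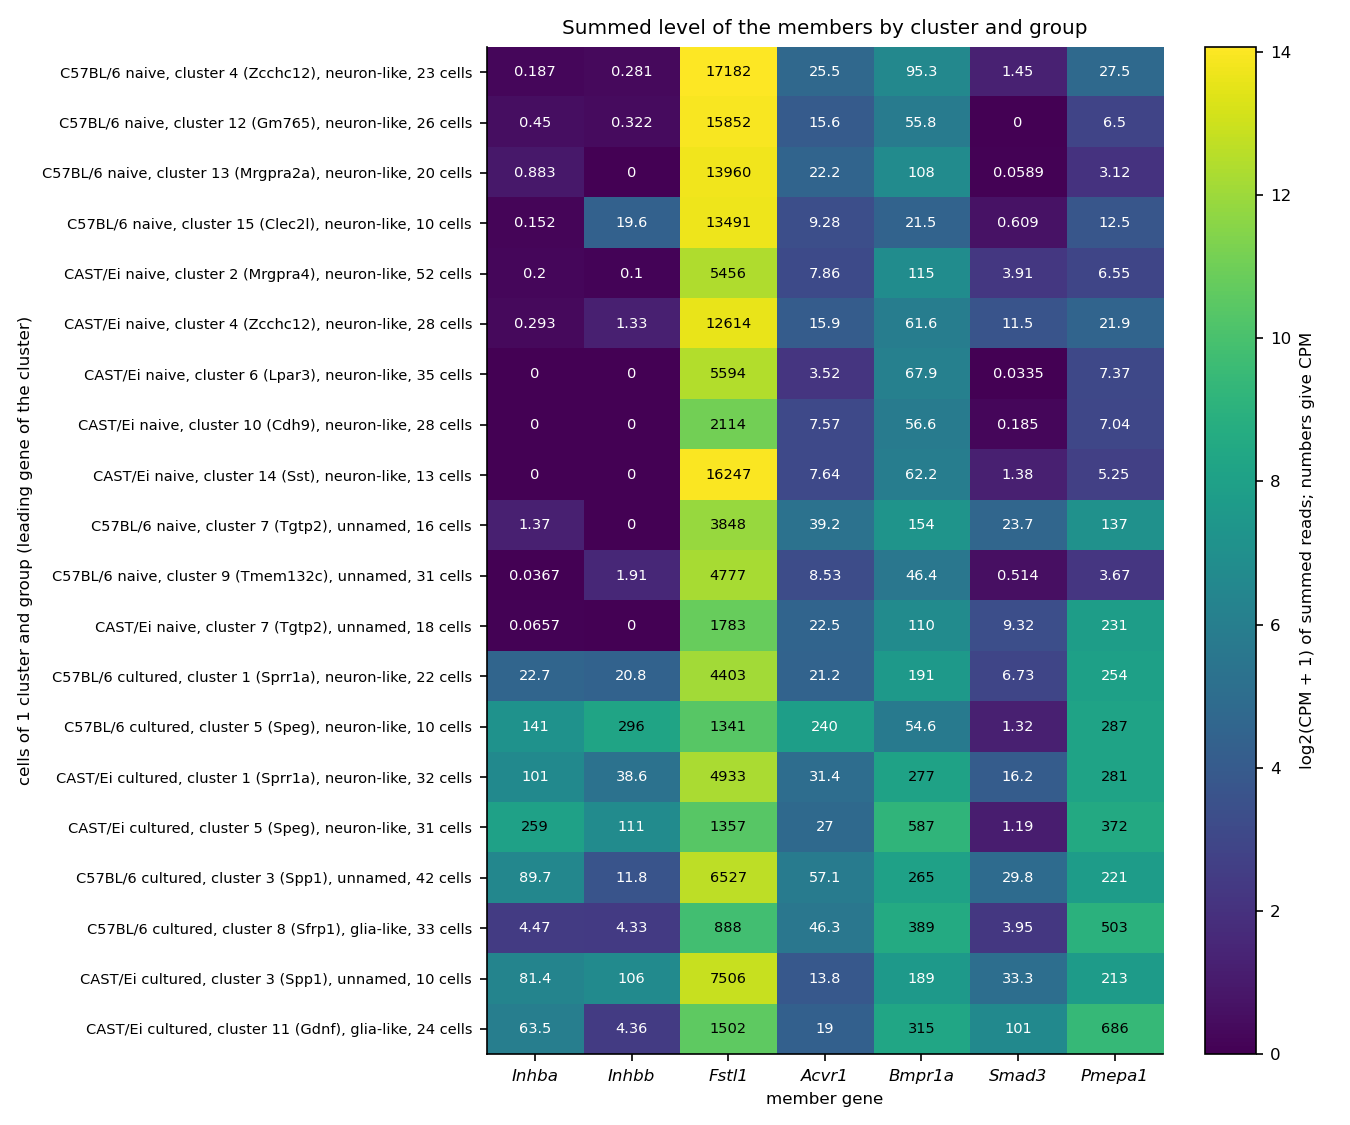
Summed level of each of the 7 genes in every cluster and group with at least 10 cells, as colour on a log2(CPM + 1) scale with the CPM printed. Inhba is at most 1.37 CPM in the naive clusters and Inhbb at most 1.91 CPM in those other than cluster 15, while Fstl1 is at 888 CPM or more in every cluster shown.

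The subunits were found together in CAST/Ei at close to their separate shares. At 200000 reads, 22 of 58 cultured CAST/Ei cells had both. Inhbb was in 53.7% of the 41 cells with Inhba, against 48.3% of all 58, and Inhba in 78.6% of the 28 cells with Inhbb, against 70.7% of all. In C57BL/6 4 of 26 cells had both, 44.4% of the 9 cells with each, against 34.6% of all 26. Their levels were only weakly related over these cells (Pearson r of 0.12 over 58 cells in CAST/Ei and -0.01 over 26 in C57BL/6, as a description). Naive cells of both strains had a median of 2 of the 7 genes and cultured cells a median of 4.

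Fstl1, a secreted follistatin-like glycoprotein that binds TGF-beta family proteins and is known to restrain synaptic transmission of sensory afferents, was abundant in every group. Naive C57BL/6 cells ranged from 4375 to 39997 CPM with a median of 16125 CPM, and cultured ones from 313 to 13212 CPM with a median of 2707 CPM. All 85 naive cells lay above the cultured median, and 54 of them above every cultured cell. CAST/Ei overlapped more: naive cells ranged from 537 to 29159.5 CPM with a median of 5142 CPM, and cultured cells from 21.9 to 20762 CPM with a median of 1888 CPM. Summed levels were 3128 against 16267 CPM in C57BL/6, a log2 ratio of -2.38, and 3062 against 6807 CPM in CAST/Ei, a log2 ratio of -1.15. The gene lies on chromosome 16, 37777055 to 37836516.

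Fstl1 also differed between the cultured clusters, in the direction opposite to the activin subunits. It stood at 4403 and 4933 CPM in cluster 1 and at 1341 and 1357 CPM in cluster 5, in C57BL/6 and CAST/Ei. Against all naive CAST/Ei neuron-like cells, cluster 1 alone was within 2-fold (log2 ratio -0.46), so the CAST/Ei call rested on cluster 5. The highest cultured CAST/Ei cell, at 20762 CPM, lay in cluster 4, a cluster of mostly naive cells.

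Among naive cells Fstl1, which took no part in the clustering, differed between clusters of sensory neuron subtypes. The peptidergic cluster 4 (led by Zcchc12 and holding Tac1, which encodes substance P) had 17182 CPM in C57BL/6 and 12614 CPM in CAST/Ei, and the cluster with Sst and Nppb, peptides of itch neurons, had 16247 CPM in CAST/Ei. Clusters with Mrgprd, a receptor of non-peptidergic nociceptors, had 15852 CPM in C57BL/6 (cluster 12) and 5594 CPM in CAST/Ei (cluster 6). Clusters with the highest low-threshold C fibre list were lowest among these, at 4777 CPM in C57BL/6 (the unnamed cluster 9) and 2114 CPM in CAST/Ei (cluster 10). Cluster 2 of CAST/Ei, led by Mrgpra4, had 5456 CPM, and clusters 13 and 15 of C57BL/6 had 13960 and 13491 CPM. Quartiles over cells separated the low from the high clusters: 1621 to 2561 CPM in cluster 10 against 7809 to 15854 CPM in CAST/Ei cells of cluster 4.

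**Figure D4:**
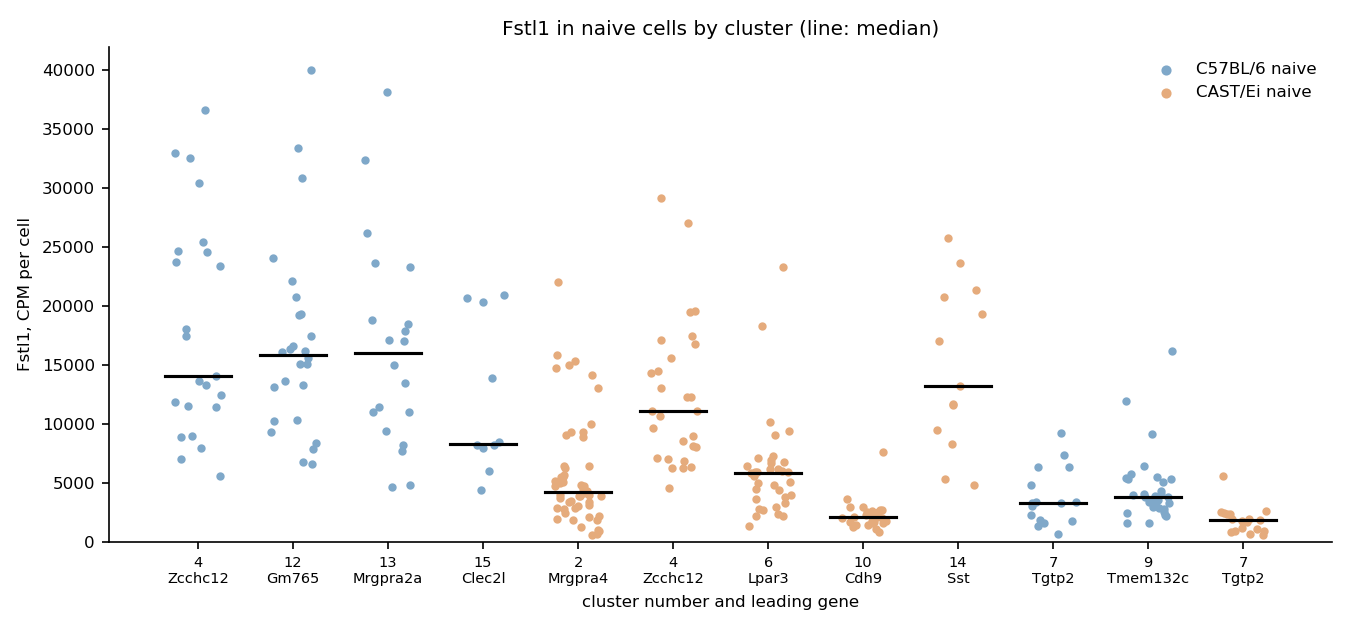
Fstl1 level of each naive cell in CPM, by cluster and strain, with lines at the medians. Medians run from 1819 CPM in CAST/Ei cells of cluster 7 to 16012 CPM in cluster 13 of C57BL/6.

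Acvr1 encodes a type I receptor used by BMPs (chromosome 2, 58446438 to 58566828). Naive C57BL/6 cells ranged from 0 to 124.8 CPM with a median of 6.67 CPM, and cultured ones from 0 to 997 CPM with a median of 16.1 CPM. Only 3 of 33 cultured cells exceeded every naive cell. The sums were 116.5 CPM (111.4 to 121.8) against 19.04 CPM, a log2 ratio of 2.55, but 1 cell of cluster 5 held 72.4% of the cultured reads. Without the cell with most reads in each group the ratio was 0.96, below the call, and cluster 1 alone gave 21.2 CPM, a ratio of 0.15. In CAST/Ei naive cells ranged from 0 to 123.1 CPM (median 1.96) and cultured cells from 0 to 166.1 CPM (median 5.37), with sums of 8.51 and 27.9 CPM, a log2 ratio of 1.60. This call was kept in all alternatives, 1.44 without the cell with most reads among them.

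Bmpr1a, the other type I receptor of BMPs among the 7 (chromosome 14, 34411061 to 34503336), was found in most naive cells. Naive medians were 45.1 CPM in C57BL/6 (0 to 579.5) and 49.3 CPM in CAST/Ei (0 to 356), and cultured medians 109.6 CPM (0 to 443) and 136.3 CPM (0 to 5695). C57BL/6 groups overlapped throughout, with no cultured cell above every naive one, and 11 of 65 cultured CAST/Ei cells were above every naive one. Summed levels of 131.8 against 75.1 CPM in C57BL/6 (log2 ratio 0.80) were within 2-fold. They stayed within 2-fold in 14 of 16 alternatives, with a ratio of -0.47 without the cells of the highest glial list. Bmpr1a was called higher in C57BL/6 with Ward clusters (1.35) and with cluster 1 alone (1.34). CAST/Ei sums of 457 against 78.3 CPM gave a log2 ratio of 2.53. The cell at 5695 CPM held 31.3% of the CAST/Ei reads, and without it and the top naive cell the ratio was 2.06. Annotation places an antisense gene, Gm17110, over exons of Bmpr1a, and since the counting is not stated to use strand, their reads cannot be told apart.

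Smad3, the transcription factor that carries activin and TGF-beta signals (chromosome 9, 63646766 to 63757994), was low in neuron-like cells of every group. The median cell had 0 CPM in each, and the highest had 35.7 CPM in naive and 85.5 CPM in cultured C57BL/6 cells, and 87.8 and 105.7 CPM in CAST/Ei. Sums were 4.33 CPM (3.39 to 5.44) against 1.08 CPM (0.849 to 1.36) in C57BL/6, a log2 ratio of 1.35 from 73 reads in each group. In CAST/Ei they were 6.59 CPM (5.99 to 7.23) against 3.59 CPM (3.30 to 3.89), a ratio of 0.73, within 2-fold. The C57BL/6 call was kept in 12 of 16 alternatives. It was lost without the cells of the highest glial list (0.46), with cluster 5 alone (0.15) and at a pseudocount of 10 CPM (0.37). With a filter of at least 10 CPM no call was made, since both C57BL/6 sums were lower. Within the cultured cells Smad3 stood at 6.73 and 16.2 CPM in cluster 1 and at 1.32 and 1.19 CPM in cluster 5.

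Pmepa1, a membrane protein that TGF-beta induces and that holds back Smad2 and Smad3 (chromosome 2, 173224458 to 173276731), was low in most naive and high in most cultured cells. Naive medians were 1.68 CPM in C57BL/6 (0 to 189.9) and 0.845 CPM in CAST/Ei (0 to 145.8). Cultured medians were 157.7 CPM (0 to 780.4) and 230.3 CPM (2.79 to 955). In CAST/Ei all 65 cultured cells lay above the naive median and 45 above every naive cell, and in C57BL/6 16 of 33 lay above every naive cell. The sums were 260.3 CPM (253 to 268) against 12.4 CPM (11.6 to 13.3) in C57BL/6, a log2 ratio of 4.29, and 327 CPM (323 to 331) against 9.70 CPM (9.22 to 10.2) in CAST/Ei, a ratio of 4.94. No single cell held more than 17.5% of the cultured reads. Levels were close in the 2 cultured clusters, at 254 and 281 CPM in cluster 1 and 287 and 372 CPM in cluster 5. Without the cells of the highest glial list the ratios were 5.10 and 5.67.

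Naive neuron-like cells of the strains differed in 4 of the 7 genes, 3 of them lower in CAST/Ei. Smad3 was called higher in CAST/Ei (3.59 against 1.08 CPM), where 8.38% of all genes were called higher. This call was lost by mean CPM per cell (2.56 against 1.08 CPM, log2 ratio 0.78), with cells classed by their own markers (0.80) and at a pseudocount of 10 CPM (0.29), and both levels were under 10 CPM. Inhbb (0.289 against 2.08 CPM), Fstl1 (6807 against 16267 CPM, log2 ratio -1.26) and Acvr1 (8.51 against 19.04 CPM, -1.08) were called lower, where 6.45% of all genes were. Bmpr1a (0.06) and Pmepa1 (-0.32) were within 2-fold, and Inhba was under 1 CPM in both strains. With the 31 unnamed C57BL/6 cells of cluster 9 counted as neuron-like, Fstl1 stood at 12962 CPM (-0.93) in C57BL/6 and the Acvr1 ratio was -0.84, and neither was called. Without the cell with most reads, Inhbb was under 1 CPM in both strains, and at the pseudocount of 10 CPM its ratio was -0.23. Most naive C57BL/6 Inhbb reads came from cluster 15 (19.6 CPM), which held no CAST/Ei cell. Clusters 12 and 13 of C57BL/6 had 0.32 and 0 CPM. In cluster 4, Inhbb was at 0.28 CPM in C57BL/6 and at 1.33 CPM in CAST/Ei, where 3 cells held all its reads. The Inhbb ratio between strains was not taken without cluster 15. The subtypes captured also differed, since only cluster 4 held over 10 naive neuron-like cells of each strain. Within cluster 4, Fstl1 was 12614 CPM in 28 CAST/Ei cells against 17182 CPM in 23 C57BL/6 cells, with quartiles of 7809 to 15854 and 11480 to 24588 CPM that overlapped. Of the clusters with Mrgprd, cluster 6 of CAST/Ei had 5594 CPM against 15852 CPM in cluster 12 of C57BL/6. Their quartiles of 3677 to 6705 and 11038 to 19257 CPM did not overlap. Of those with the highest low-threshold C fibre list, CAST/Ei cluster 10 had 2114 CPM against 4777 CPM in the unnamed C57BL/6 cluster 9. Their quartiles of 1621 to 2561 and 2909 to 5317 CPM did not overlap. The part of the captured subtypes in the strain ratio was not tested.

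After culture, 2 of the 7 genes were called higher in CAST/Ei and 1 lower. Inhba (193 against 70.1 CPM, log2 ratio 1.45) and Bmpr1a (457 against 131.8 CPM, 1.79) were higher, where 22.4% of all genes were called higher, and Acvr1 (27.9 against 116.5 CPM, -2.02) was lower, where 13.8% were. Inhbb (-0.70), Fstl1 (-0.03), Smad3 (0.51) and Pmepa1 (0.33) were within 2-fold. Over the alternatives Inhbb ran from -1.41 to 0.86 and Smad3 from -0.63 to 2.45. Median-of-ratios scaling moved the median of all genes from 0.19 to 0.00 and the share of calls that were higher from 61.9% to 50.1%, and kept these 3 calls. For Inhba, 57 of 65 CAST/Ei cells were above the C57BL/6 median, and 8 of 33 C57BL/6 cells above the CAST/Ei median. The strains mix the cultured clusters differently, and within each the Inhba ratio was 2.11 in cluster 1 and 0.87, within 2-fold, in cluster 5. Without the cell with most reads in each strain, cluster 5 stood at 189.95 against 59.1 CPM, more than 2-fold apart. Bmpr1a was within 2-fold in cluster 1 (0.53) and 3.40 in cluster 5. The Acvr1 call was lost without the cell with most reads (-0.60), and in cluster 1 alone CAST/Ei was the higher strain (0.54).

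The log2 ratio of cultured to naive cells was larger in CAST/Ei than in C57BL/6 by 1.77 for Inhba, 1.73 for Bmpr1a, 0.65 for Pmepa1 and 0.55 for Inhbb. For Acvr1 and Smad3 it was smaller in CAST/Ei (differences of -0.95 and -0.63), and the Fstl1 ratio was less negative there by 1.23, or by 0.90 with cluster 9 counted. Without the cell with most reads in each sum the difference was 1.27 for Bmpr1a and turned to 0.48 for Acvr1, and with cluster 1 alone it was 0.47 for Bmpr1a and 1.62 for Acvr1. The Smad3 difference turned to 1.46 with each cell classed by its own markers and to 1.31 with cluster 11 counted. For Inhbb the direction was not stable either. Its difference was -0.42 at a pseudocount of 10 CPM and -0.15 with cluster 5 alone. It was 1.74 without the cell with most reads in each sum and 2.11 with cluster 1 alone. With 1 sample a group these differences between strains were not tested.

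Whether these levels set neuron-like cells apart was asked within each culture, against the 78 other C57BL/6 and 34 other CAST/Ei cells. In C57BL/6, Inhbb (131.7 against 8.62 CPM, log2 ratio 3.79) and Acvr1 (116.5 against 50.98 CPM, 1.18) were called higher in neuron-like cells, where 18.3% of all genes were called higher. Bmpr1a (131.8 against 303 CPM, -1.20) and Smad3 (4.33 against 19.96 CPM, -1.98) were called lower, where 29.7% were. Inhba (70.1 against 55.7 CPM, 0.33), Fstl1 (-0.45) and Pmepa1 (-0.32) were within 2-fold. Median-of-ratios scaling moved the median of all genes here from -0.41 to 0.00 and the share of calls that were higher from 38.1% to 57.9%, and with it Bmpr1a (-0.76) was within 2-fold and Pmepa1 was at 0.12. In CAST/Ei, Inhba (193 against 68.3 CPM, 1.49) and Inhbb (80.4 against 31.7 CPM, 1.32) were called higher, with 19.8% of all genes, and Smad3 (6.59 against 82.9 CPM, -3.47) lower, with 23.4% of all genes. Fstl1 (-0.03), Acvr1 (0.63), Bmpr1a (0.70) and Pmepa1 (-0.77) were within 2-fold there.

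Inhbb in C57BL/6 was called higher in neuron-like cells under every alternative, between 1.18 and 4.95. Acvr1 in C57BL/6 changed direction without the cell with most reads (-0.37) and with cluster 1 alone (-1.22). The CAST/Ei calls of all 3 genes were lost when the glia-like cluster 11 was counted as neuron-like, where Inhba was 0.87, Inhbb -0.93 and Smad3 0.19, while Bmpr1a (1.11) and Pmepa1 (1.06) were called higher and Fstl1 (-1.56) lower. Most CAST/Ei Smad3 reads of other cells came from that cluster (101.2 CPM), where nearly all reads lay in 5 of 24 cells. Pmepa1 was high in all cultured clusters, from 213 CPM in CAST/Ei cells of cluster 3 to 686 CPM in cluster 11. It was also high in some naive other cells, at 231 CPM in the 18 CAST/Ei cells of cluster 7, which led with endothelial and interferon-induced genes.

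Shares of cells showed which genes were broadly present. In C57BL/6, 15.2% of the naive neuron-like cells held Pmepa1 and 88.5% (69.8 to 97.6) of the cultured ones, and in CAST/Ei 12.8% (7.91 to 19.3) and 94.8% (85.6 to 98.9). Inhbb was found in 5.06% and 34.6% in C57BL/6 and in 0.676% and 48.3% in CAST/Ei, against 15.5% and 18.8% of other cultured cells of the strains. Acvr1 shares were 29.1% and 34.6% in C57BL/6, intervals that overlap, and 14.2% and 34.5% (22.5 to 48.1) in CAST/Ei. Bmpr1a was in 73.4% and 73.1%, and in 78.4% and 82.8%. Smad3 was in 2.53% and 3.85% in C57BL/6, and in 3.38% and 15.5% (7.35 to 27.4) in CAST/Ei. Fstl1 was in all thinned neuron-like cells but 1, a cultured CAST/Ei cell. Free RNA taken up during capture was not measured, so a low share such as those of naive Smad3 cannot be told from background.

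**Figure D5:**
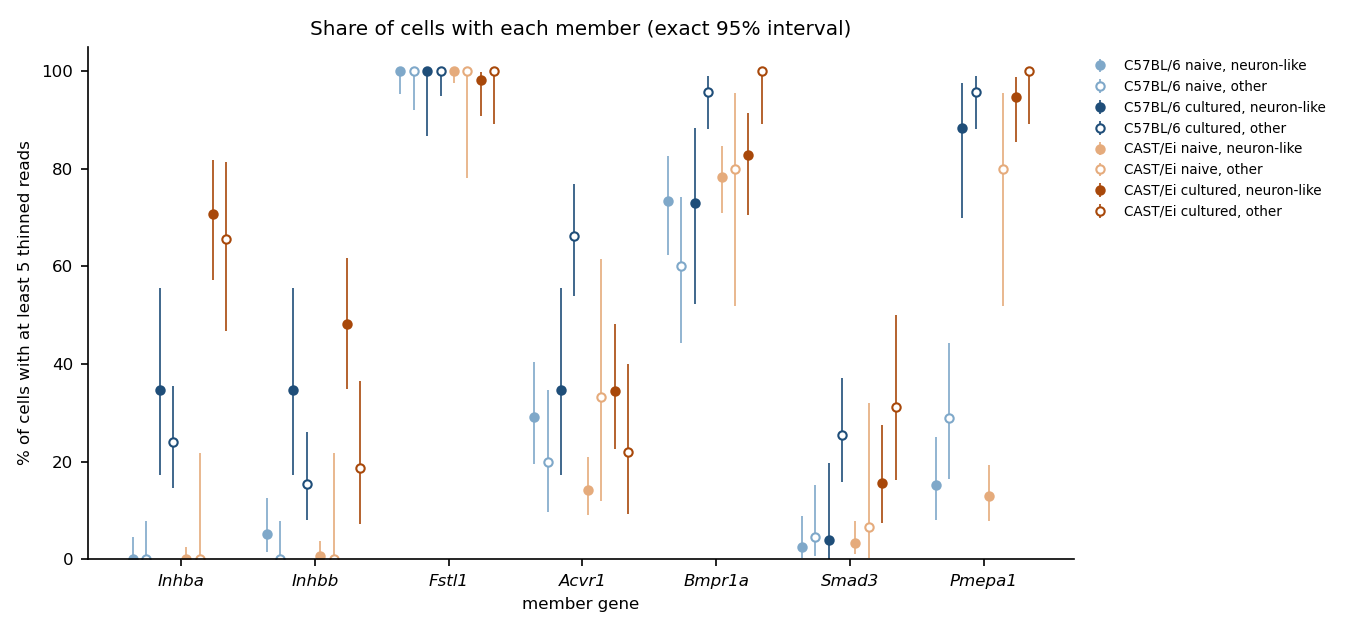
Percent of cells with at least 5 reads of each gene after thinning to 200000 reads, by group and class, with 95% Clopper-Pearson intervals. Inhba is at 0% in naive and at 34.6% and 70.7% in cultured neuron-like cells, while Fstl1 is at 98.3% or more in all neuron-like groups.

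Of 84 other activin, TGF-beta and BMP pathway genes listed, 48 were in the table. In C57BL/6 22 were called higher in cultured than naive neuron-like cells, 8 lower and 18 within 2-fold, with a median log2 ratio of 0.67. In CAST/Ei 24 were higher, 5 lower and 19 within, with a median of 0.997. The number lower depended on the setting: in C57BL/6 it was 13 without the highest glial lists, 15 with cluster 5 alone, 5 with Ward clusters and 3 at a pseudocount of 10 CPM, and in CAST/Ei 3 with cluster 1 alone and 2 at that pseudocount. These shares of genes called higher exceed the 20.9% and 23.1% over all genes. Called lower were 23.7% of all genes in C57BL/6 and 22.4% in CAST/Ei. The list was drawn up with earlier results known. In both strains 19 were higher and 3 lower, and 1, Tgfbrap1, went opposite ways.

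Among these pathway genes the extracellular binder Fst had the largest ratio in each strain, followed by targets. Fst, follistatin, which captures activin, was at 50.9 against 0.89 CPM in C57BL/6 (log2 ratio 4.78) and 52.1 against 2.07 CPM in CAST/Ei (4.11). Of the 9 measured binders 5 were higher in each strain, and Fstl5 was lower in both (-3.06 and -1.30). Nbl1, a BMP antagonist, was lower in CAST/Ei (-1.94) and within 2-fold in C57BL/6 (-0.29), and Ltbp3 stood at -1.38 in CAST/Ei. Among 8 targets, 5 were higher in C57BL/6 and 6 in CAST/Ei: Id1, an inhibitor of helix-loop-helix factors, at 3.57 and 3.38, and Tgfbi, a matrix protein, at 3.52 and 3.69. Id2 was within 2-fold in both, at 310.4 against 320 CPM in C57BL/6, and Id4 was lower in C57BL/6 (-1.40) and within 2-fold in CAST/Ei (0.77). The other cells of the same C57BL/6 culture held more of these transcripts. There 7 of the 8 targets were called lower in neuron-like than other cells, where 29.7% of all genes were. Id1 at 62.4 against 128.9 CPM and Tgfbi at 39.3 against 199.6 CPM were among them. In CAST/Ei 3 of 8 targets were called lower, where 23.4% of all genes were. The C57BL/6 ratios of Id1 (-1.03) and Id2 (-1.01) lay just past 2-fold, by less than the shift of the all-gene median (-0.41 to 0.00) between scalings. The part of other-cell transcripts in the target levels was not tested.

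Receptors and SMADs of the list were partly higher. Tgfbr1, the type I receptor of TGF-beta, was at 104.3 against 8.79 CPM in CAST/Ei (3.43) and at 30.0 against 12.8 CPM in C57BL/6 (1.17), and Tgfbr2 was called higher in both. The type II receptors Acvr2a and Bmpr2 were within 2-fold in both strains. Among SMADs, Smad1 (1.70 in C57BL/6 and 2.54 in CAST/Ei) and Smad5 (1.22 and 1.71), which carry BMP signals, were called higher, Smad2 (-0.25 and -0.01) and Smad4 (0.65 and 0.48) were within 2-fold, and Smad9 was lower in C57BL/6 (-1.91). The inhibitory Smad7 was higher in both (1.56 and 1.81). The BMP co-receptor Rgmb was high in naive CAST/Ei cells (489.7 CPM), and the pseudoreceptor Bambi was lower after culture in C57BL/6 (-2.27).

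Intracellular regulators went both ways. The ubiquitin ligases Smurf1 (2.55 and 3.57) and Smurf2 (3.48 and 1.67), which act on SMADs and receptors, were called higher in both strains. Nedd4l, a ligase of the same family that was among the highest naive genes of the list (302 and 335 CPM), was lower in both (-2.04 and -1.23), as was Ldlrad4, a relative of Pmepa1 (-2.11 and -2.39). Fkbp1a, which binds type I receptors, had 293 and 438 CPM in naive cells. Only 3 of the 19 listed ligands other than the activin subunits were measured, and none was called higher in both strains.

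Genes with the most similar pattern to each member were sought over 20 sums of a cluster and group, among 9517 genes with a mean of at least 10 CPM, by Pearson correlation of log2(CPM + 1). These are descriptions, and the sums share their clusters, libraries and depths. Inhba was closest to Hnrnpab (r = 0.94), Sprr1a (0.91) and Nus1 (0.91). Inhbb was closest to Sez6l (0.91), Cd164 (0.91) and Bcat1 (0.90), and Fstl1 to Peg3 (0.87), Bend4 (0.83) and Slc48a1 (0.80). Acvr1 was closest to Tmed2 (0.89), Commd6 (0.87) and Elk3 (0.84), and Bmpr1a to Mdm2, Bnip2 and Nasp (0.90 each). Smad3 was closest to Ctsk (0.88), Rpl22l1 (0.86) and Gas5 (0.86). Pmepa1 had the closest matches, Nr2f1 (0.98), Cdc42ep1 (0.97) and Arhgap42 (0.96). No pathway gene was among these 21.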

How the data were processed

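The values the authors deposited are raw counts of reads, whole in every entry, for 11251 genes in 516 cells. Bowtie2, SAMtools and mm10 are named per the submitters' processing notes, while the counter, annotation, strandedness and filters were not given in the sources used here. Reads were amplified and carry no molecular identifiers, and mm10 is a C57BL/6 genome: whether strain variants of CAST/Ei change read alignment was not tested. Clusters came from Python 3.11.15 with scikit-learn 1.9.0 and leidenalg 0.10.2, from 2000 variable genes without the pathway genes, 20 principal components, 15 neighbours and resolution 1, and were named by the highest marker list, a name being lost where more markers of another class led. No doublet caller was run. Reads were summed per group and class, scaled to CPM, and compared as log2 ratios of CPM + 1. The call rule was checked on simulated naive neuron-like cells, with changes larger than 2-fold in genes at high levels. Those levels were above the naive sums of Inhba, Inhbb, Smad3, Acvr1 and Pmepa1. That check does not cover such low levels, changes near 2-fold or the cultured cells. Columns of the table left unused numbered 0.

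Text names all 7 genes, per strain the 5 highest and 5 lowest called pathway genes and the 3 highest naive ones, 3 similar genes per member, and other pathway genes to describe roles, which were picked after their values were seen. Of the listed genes, 1 is counted but not reported here by name. Members and lists were chosen with earlier results of these data known. Scaling, pseudocount, filter, weighting, clustering, class, depth and single cells were varied.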

Additional observations from a re-analysis of the deposited data

Results flagged for a closer look

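Tgfbrap1, which encodes a protein that associates with TGF-beta receptors, moved in opposite directions with culture in neuron-like cells of the strains. Its log2 ratio of cultured over naive cells was -1.32 in C57BL/6 (4.38 against 12.5 CPM) and 1.03 in CAST/Ei (34.5 against 16.3 CPM). With 1 sample a group, the difference between the strains was not tested.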

How the results depend on the processing

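Of the member calls, those of Inhba, Inhbb, Pmepa1 and Fstl1 in C57BL/6 and of Inhba, Inhbb, Pmepa1, Acvr1 and Bmpr1a in CAST/Ei between cultured and naive cells were kept in every alternative run, as were Inhbb and Smad3 between neuron-like and other C57BL/6 cells. No call between strains, and none between neuron-like and other CAST/Ei cells, was kept in all. Clusters from all genes gave the same counts of calls. Bmpr1a in C57BL/6, within 2-fold between cultured and naive cells, was called higher with Ward clusters (1.35) and with cluster 1 alone (1.34). The settings of single clusters, with or without their top cell, of the unnamed cluster 9 and of cluster 11 were added after the data were seen.

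Cluster 1 alone as cultured neuron-like cells gave 0 members lower in CAST/Ei culture, 0 lower and an Acvr1 ratio of 0.54 between cultured strains, 1 higher and an Acvr1 ratio of -1.22 against other C57BL/6 cells, 0 higher against other CAST/Ei cells, and 3 pathway genes lower in CAST/Ei. Cluster 5 alone gave 2 members lower in CAST/Ei culture, 1 higher and 2 lower between cultured strains, 2 lower against other CAST/Ei cells, and 15 pathway genes lower in C57BL/6. Without the highest glial lists, 2 members were lower between cultured strains and 13 pathway genes lower in C57BL/6. Between naive strains, members called higher were 0 at 10 CPM or more, with each cell classed by its own markers, by mean CPM per cell, and at a pseudocount of 10 CPM. Those called lower were 1 with Ward clusters, own markers, that pseudocount, or cluster 9 counted. Against other C57BL/6 cells, 1 was higher with cluster 11 counted or by mean CPM, 1 lower with Ward clusters or median-of-ratios scaling, and Acvr1 was -0.37 without the cell with most reads. Counting cluster 11 gave Inhbb -0.93 and Smad3 0.19 against other CAST/Ei cells. Pathway genes lower in C57BL/6 were 5 with Ward clusters and 3 at the higher pseudocount, and in CAST/Ei 2 at that pseudocount. The cause was not tested.

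No paired analysis was possible because nothing in the labels says that cells with the same title number are linked, and each group was treated as 1 sample. Sums of low genes rest on few reads, such as 27 and 19 naive Inhba reads, and intervals cover counting error alone.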
